A study of Mus musculus with 167 samples.

Results

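The 5 mature miRNAs described here, mmu-miR-99a-5p, mmu-miR-99b-5p, mmu-miR-100-5p, mmu-miR-125a-5p and mmu-miR-125b-5p (written without the mouse prefix, and where no arm is given as the 5p arm, from here on), make up the miR-99/100 and miR-125 families in the mouse. They were chosen by name and are 5 of the 1915 mature miRNAs listed in each of 5 tables of sequencing counts, for lung, heart, brain, a white blood cell (WBC) fraction and a red blood cell (RBC) fraction. The 167 libraries came from 35 animals. C3H mice (C3Hf/Sed/Kam), all female, were sampled at month 4, and C57 mice (C57Bl/6), of both sexes, at month 6. Mice received either whole thorax lung irradiation (WTLI), in which X-rays were given to the thorax while lead covered the other regions of the body, or a sham procedure. Each animal also carries a letter, A or B, whose meaning the labels do not give. For lung, heart, brain and RBC there were 8 sham C3H, 7 irradiated C3H, 15 sham C57 and 5 irradiated C57 libraries each. Of the irradiated C57 mice 4 were male and 1 was female, and of the sham C57 mice 8 were male and 7 female. The WBC fraction was sequenced for 6 irradiated C3H mice, 5 sham C3H mice, 5 irradiated C57 mice and 11 sham C57 mice. Strain and month changed together in this design and cannot be told apart.

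The miR-99/100 and miR-125 families are ancient and are mostly encoded as mixed clusters, in which a miR-99 or miR-100 hairpin, a let-7 hairpin and a miR-125 hairpin lie near each other in the genome. A mature miRNA guides an Argonaute protein to messenger RNAs through its seed, the bases at positions 2 to 8. The miR-99/100 seed is known for targeting the kinase mTOR and the receptor IGF1R, and miR-125 for roles in blood stem cells, in neurons and in the regulation of p53. Brain is known as a tissue rich in miR-125b.

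The mature sequences, taken from RefSeq (GRCm38.p6), are shown because they define both families and because 2 members differ so little that their reads are hard to separate. They are written 5′ to 3′ with the seed in capitals. The last, miR-351-5p, is no member but carries the miR-125 seed.
miR-99a-5p: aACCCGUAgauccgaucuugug
miR-99b-5p: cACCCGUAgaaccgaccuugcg
miR-100-5p: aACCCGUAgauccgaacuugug
miR-125a-5p: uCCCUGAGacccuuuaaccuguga
miR-125b-5p: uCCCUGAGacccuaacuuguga
miR-351-5p: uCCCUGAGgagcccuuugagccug

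The 3 miR-99/100 sequences share the seed ACCCGUA. With positions counted from 1 at the 5′ end, miR-99a and miR-100 differ at 1 base, U16A (miR-99a first). miR-99a and miR-99b differ at 4 bases, A1C, U11A, U16C and U21C. miR-125a is 2 bases longer than miR-125b. Compared position by position without a gap, they differ at 7 of 22 positions. With 2 bases (uu, after acccu) of miR-125a skipped, they differ at 1 base. How the counting treated reads that match more than 1 miRNA is not given in the sources used here, so the split of counts between miR-99a and miR-100 is uncertain. Of the other miRNAs with the miR-125 seed, miR-6394 and miR-6367 had 0 counts in all 167 libraries.

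The 5 members come from 3 genomic clusters (mm10, all on the plus strand). miR-99b (chr17:17830194-17830215) and miR-125a (chr17:17830817-17830840) start 623 bases apart inside Spaca6, miR-99b in an intron and miR-125a in an exon of that gene's annotation. miR-99a (chr16:77598940-77598961) and the copy of miR-125b made from Mir125b-2 (chr16:77646279-77646300) start 47339 bases apart in introns of Mir99ahg, a host gene of miRNAs. miR-100 (chr9:41531437-41531458) and the copy from Mir125b-1 (chr9:41581940-41581961) start 50503 bases apart in introns of 3110039I08Rik and Gm49317, and the Mir125b-1 copy also lies in an exon of Gm28119. The 2 copies of miR-125b have the same mature sequence, so its counts sum both loci, while their other arms, miR-125b-1-3p and miR-125b-2-3p, are counted apart.

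Library totals ran from 1794995 to 7865102 counts, so that 3 counts, taken as the floor of detection, equal 0.381 to 1.67 RPM (counts after each library total was scaled to 1000000). Tissue labels were checked against marker miRNAs. The summed cardiac muscle markers (4 miRNAs) were at 50690 to 298863 RPM in heart and at most 8560.4 RPM in lung, and the neuronal markers were at 111122 to 159406 RPM in brain and at most 5802 RPM elsewhere. The epithelial markers reached 37452 RPM in lung but ran from 97.6 to 41037 RPM in brain (median 973), so that some brain libraries held as much of them as lung. The 2 blood fractions were not set apart by their markers, since leukocyte sums (10623 to 33448 RPM in WBC, 8203 to 45244 in RBC) and erythrocyte sums (17913 to 106907 and 28566 to 106323 RPM) overlapped. In heart, 2 C3H libraries stood apart, both of letter A. Irradiated replicate 3 had a cardiac muscle sum of 50690 RPM against 152407 to 246805 in the other 6, and sham replicate 3 had a leukocyte sum of 10253 RPM against 1065 to 3355 in the other 7. The changes in C3H heart that the text turns on are given with and without them. In all tissues here fewer cells of a type and less RNA per cell cannot be told apart.

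mmu-miR-125b-5p had the highest mean RPM of the members in every tissue of sham mice. In sham mice it averaged 25404 RPM in brain (lowest 15804, median 21090.4, highest 59846, n = 23), 8427 RPM in lung (1243, 7446, 16991) and 8130.3 RPM in heart (3995, 7401, 20815). It averaged 289 RPM in WBC (27.3, 130.4, 1033, n = 16) and 25.5 RPM in RBC (6.89, 21.0, 57.6, n = 23). By mean level it ranked 11 of all miRNAs in brain, 18 in lung, 19 in heart, 72 in WBC and 111 in RBC. Its share of the counts of the 5 members was 81.8% ± 2.58 (SD) in brain, 74.1% ± 4.22 in heart, 68.9% ± 8.03 in lung, 58.4% ± 9.41 in RBC and 41.3% ± 10.8 in WBC. Tissues were ordered for each member by their mean log2(RPM + 1), which for miR-125b put heart before lung, and neighbours in that order were compared within animals by a two-sided paired permutation test on log2(RPM + 1), with Benjamini-Hochberg adjustment over the 20 neighbour pairs of the 5 members. Brain exceeded heart in 23 of 23 mice (3.14-fold, adjusted permutation p = 5e-05). Heart and lung were not separated (log2 difference 0.09, higher in 13 of 23 mice, adjusted permutation p = 0.747). Lung exceeded WBC 40.7-fold and WBC exceeded RBC 7.49-fold, each in 16 of 16 mice.

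mmu-miR-99a-5p had nearly the same RPM in the 3 solid tissues. Sham means were 2110.5 RPM in heart (1031, 2180.1, 3563), 2089.9 RPM in brain (890.3, 2184, 4589.5) and 1792 RPM in lung (862, 1812, 2492). Neither step in this order passed the test (heart over brain 0.04, adjusted permutation p = 0.804; brain over lung 0.15, adjusted permutation p = 0.296). With TMM scaling, a factor that corrects totals for the makeup of each library and had a median of 2.12 in brain, 1.11 in lung and 0.809 in heart, both steps passed. Heart then exceeded brain by 1.38 on the log2 scale, and brain lay under lung with a difference of -0.85 (each adjusted permutation p = 6e-05). In WBC miR-99a averaged 164 RPM (6.71, 128, 423), 17.4-fold under lung, and in RBC 10.3 RPM (0.551, 7.69, 34.0), 14.04-fold under WBC, each in 16 of 16 mice.

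mmu-miR-99b-5p and mmu-miR-125a-5p, which share a cluster, had their highest RPM in brain, although for miR-99b lung came first with TMM scaling. miR-99b averaged 1316 RPM in brain (642, 1250.4, 3029.7), 914 RPM in lung (199, 841, 2317), 255 RPM in heart (115, 213, 785), 133 RPM in WBC (11.6, 68.4, 449.7) and 6.47 RPM in RBC (highest 26.7). All 4 of its steps passed. Brain exceeded lung 1.60-fold in 17 of 23 mice (log2 difference 0.68, adjusted permutation p = 0.00159), a step that was lost with TMM scaling (-0.31, adjusted permutation p = 0.124) and in C3H mice alone (0.31, adjusted permutation p = 0.450). For this member lung exceeded heart 3.27-fold in 23 of 23. miR-125a averaged 1020.2 RPM in brain (438, 739, 2935), 293 RPM in lung (57.3, 258, 606), 209 RPM in heart (86.8, 214, 472), 65.6 RPM in WBC (7.17, 27.1, 275) and 4.09 RPM in RBC (highest 15.0). Brain exceeded lung 3.62-fold in 22 of 23 mice (in C3H alone 0.86 on the log2 scale, adjusted permutation p = 0.0625), whereas lung and heart were not separated for this member (log2 difference 0.37, 15 of 23 mice, adjusted permutation p = 0.150). In C3H mice alone lung exceeded heart by 1.22 for miR-125a (adjusted permutation p = 0.0391), and in C57 mice alone the difference was -0.08 (adjusted permutation p = 0.813).

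mmu-miR-100-5p was the member most nearly restricted to solid tissue. It averaged 1158 RPM in brain (369.9, 1063, 2653), 298 RPM in lung (152, 256, 556) and 216 RPM in heart (80.6, 206, 524). Brain exceeded lung 3.70-fold in 23 of 23 mice, and lung exceeded heart 1.45-fold in 17 of 23 (adjusted permutation p = 0.00248), the latter lost with TMM scaling (0.19, adjusted permutation p = 0.266) and in C3H mice alone (0.49, adjusted permutation p = 0.137). In the blood fractions no sham library held more than 5 counts of miR-100, at means of 0.285 RPM in WBC and 0.271 RPM in RBC, which lie under the floor, so no fold is given against them and limma did not test miR-100 in these fractions. In the paired test heart exceeded WBC in 16 of 16 mice (adjusted permutation p = 5.45e-05), and WBC and RBC were not separated (adjusted permutation p = 0.259). Its closest relative miR-99a was at 164 and 10.3 RPM in the same fractions. In all, 15 of the 20 neighbour pairs passed.

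**Figure D1:**
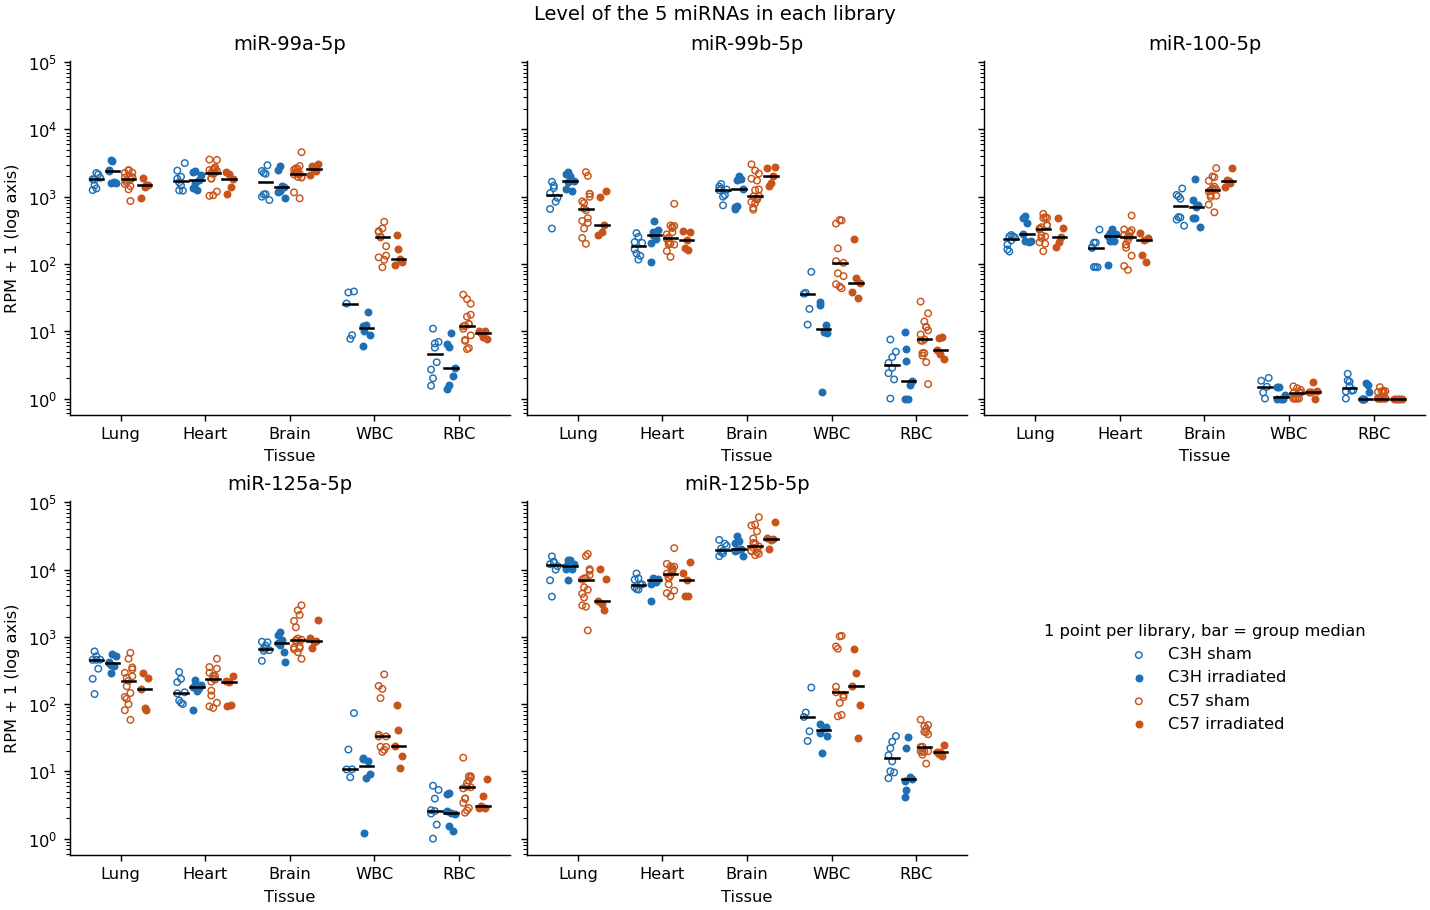
Level of each member in every library, as RPM + 1 on a log axis, by tissue, strain and treatment, with 1 panel per miRNA. Points are libraries and bars are group medians. miR-125b has the highest sham mean in each tissue, and over sham mice brain leads for every member but miR-99a (with TMM scaling lung leads brain for miR-99b too), while miR-100 lies near 0 in both blood fractions.

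Over the 10 sham groups (5 tissues in each of 2 strains), the miRNAs whose mean log2(RPM + 1) ran most like each member were found among 382 candidates. These values describe 10 group means that share tissues and animals, and carry no test. For miR-125b they were miR-29b-3p and miR-29c-3p (Pearson r = 0.990 each) and miR-3102-3p (0.985), and for miR-99a they were miR-30b-3p (0.979), miR-24-3p (0.978) and miR-29c-3p (0.976). For miR-99b they were miR-29a-3p (0.970), miR-203-3p (0.961) and miR-151-5p (0.955), and for miR-125a miR-151-5p (0.977), miR-361-5p (0.974) and miR-221-3p (0.968). miR-100 ran most like miR-190a-5p (0.994), miR-195a-3p (0.992) and miR-30c-2-3p (0.991). Among the members the highest value was that of the cluster mates miR-99b and miR-125a (0.985) and the lowest that of miR-99b and miR-100 (0.876).

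The first question of the design was whether miRNA levels in each tissue differed between irradiated and sham mice at the end of the study. Each tissue was fitted with limma (voom with quantile normalisation, all 4 groups of strain and treatment), and p-values were adjusted by the Benjamini-Hochberg method over all miRNAs tested in that tissue. The replicates are separate animals. Of the 5 members, 0 passed an adjusted p of 0.05 in any of the 10 contrasts of irradiated against sham mice, with limma, edgeR or DESeq2. Of the 46 changes tested, 2 had an unadjusted limma p under 0.05. In C3H lung 33.4% of the 350 tested miRNAs passed with limma and in C57 lung 16.6%. In heart the shares were 16.7% (C3H) and 3.53% (C57) of 312 miRNAs. In brain, WBC and RBC they were 0% in each strain.

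The counts of 0 in those tissues depended on the tool in part. Among all 433 miRNAs tested in brain, 9 in C3H and 53 in C57 mice had an unadjusted limma p under 0.05, edgeR called 0 and 3, and DESeq2 called 0 and 9. In WBC the unadjusted counts were 20 and 12 of 291, and edgeR and DESeq2 called 0. In RBC they were 43 and 14 of 229, edgeR called 12 and 1, and DESeq2 called 22 and 1.

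**Figure D2:**
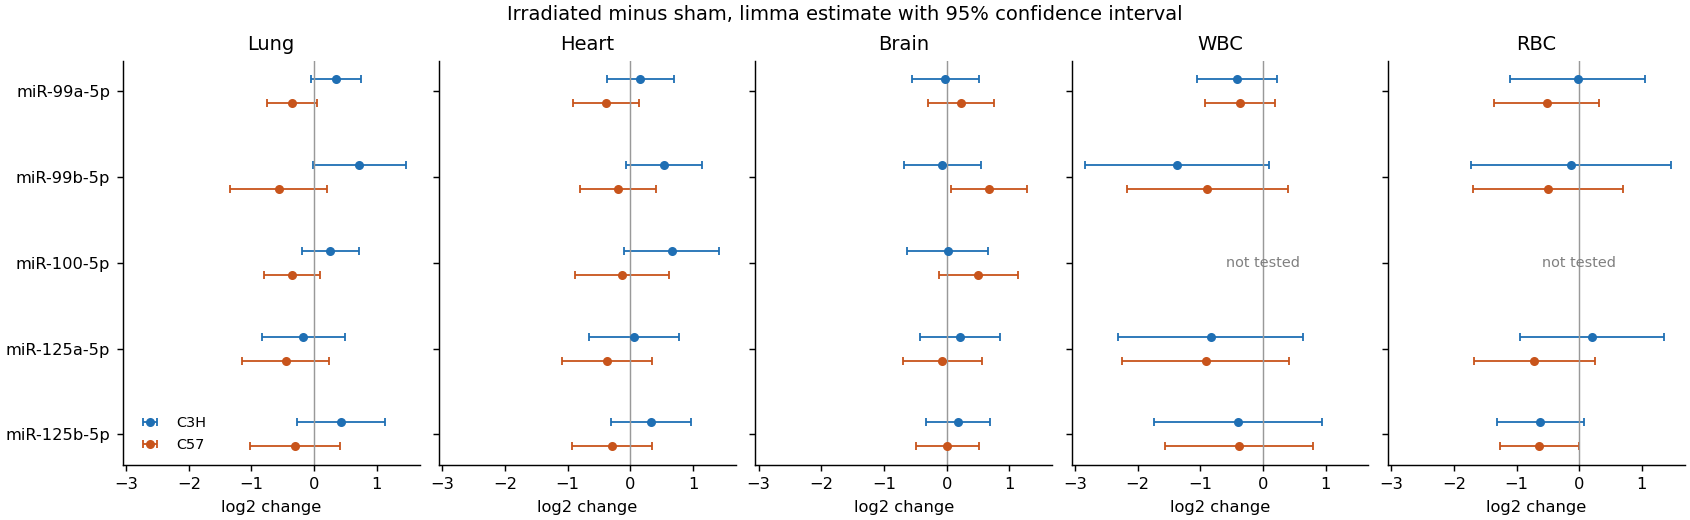
Log2 change of each member, irradiated minus sham, in 5 tissues (limma estimate, bars are 95% confidence intervals; C3H in blue, C57 in orange). In C3H lung miR-99b (0.72) and miR-125b (0.43, but -0.15 with TMM scaling) have the highest estimates, in C57 lung all 5 lie under 0, and none passed the test.

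In C3H lung the members of the miR-99/100 family had higher medians in irradiated mice, within overlapping groups. miR-99b was at 335, 1047 and 1667 RPM (lowest, median, highest) in 8 sham mice and at 1228.0, 1726 and 2324 RPM in 7 irradiated mice. Of the irradiated mice 4 lay above every sham mouse. The log2 change was 0.72 (SE 0.37, 95% interval -0.02 to 1.47, limma adjusted p = 0.132). miR-99a was at 1253, 1805 and 2254 RPM in sham and 1575, 2446 and 3528 RPM in irradiated mice, again with 4 of 7 above all sham mice (0.35, SE 0.20, limma adjusted p = 0.180). For miR-100 the values were 152, 235 and 268 RPM against 212, 281 and 521 RPM (0.25, SE 0.22, limma adjusted p = 0.40). The miR-125 family showed no such shift of medians. miR-125b was at 3955, 11651 and 15649 RPM in sham and 7086, 11254 and 13998 RPM in irradiated mice (0.43, SE 0.35, limma adjusted p = 0.353), and miR-125a at 139.9, 454 and 606 RPM against 291, 405 and 560 RPM (-0.17, SE 0.32, limma adjusted p = 0.727). RPM are relative to library totals, whereas changes are after quantile normalisation. With library size alone the median change of all tested miRNAs in C3H lung moved from -0.08 to 0.27, and that of miR-125a was 0.17. With TMM factors, edgeR and DESeq2 the change of miR-125b was -0.15, -0.21 and -0.20, so its sign depended on the scaling. The 5 members had a median change of 0.35 with quantile normalisation.

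The C3H lung estimates differed with the letter of the mice, and the difference between the letters was not tested. Within letter A, miR-99b was at 335 to 1348 RPM in 4 sham mice and at 2026 to 2324 RPM in 3 irradiated mice, without overlap, and miR-99a at 1471 to 2254 RPM against 2513 to 3528 RPM. Letter A alone, fitted with limma, gave 3 members past the threshold, miR-99a (0.85, adjusted p = 0.0195), miR-99b (1.41, adjusted p = 0.0283) and miR-100 (0.87, adjusted p = 0.0404). Within letter B, miR-99b overlapped, at 964 to 1667 RPM in sham and 1228 to 1726 RPM in irradiated mice, and 0 members passed. Of all miRNAs tested in C3H lung 19.4% passed in letter A alone and 24.1% in letter B alone. With C3H lung fitted on its own, where 38.2% passed, miR-99b did too (limma adjusted p = 0.0322), and without irradiated replicate 5 miR-99a did (0.49, limma adjusted p = 0.0496). Markers moved with irradiation in the same libraries. The cardiac muscle sum was 4759 to 7515 RPM in sham and 2569 to 5226 RPM in irradiated C3H lungs, with 4 of its 4 markers lower, and the endothelial sum was 380361 to 444378 against 297017 to 390147.0 RPM, with 1 of 2 markers lower. Their part in the member values was not tested.

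In C57 lung all 5 estimates lay under 0 and none passed. miR-99b was at 266, 989.6, 298, 378 and 1233 RPM in the 5 irradiated mice and at 199, 665 and 2317 RPM (lowest, median, highest) in 15 sham mice (-0.57, SE 0.38, limma adjusted p = 0.286). miR-125a was at 165, 288, 86.5, 81.2 and 243 RPM against 57.3, 221 and 577 RPM (-0.45, SE 0.34, limma adjusted p = 0.347). For miR-99a (-0.35), miR-100 (-0.36) and miR-125b (-0.30) the irradiated mice also lay within the range of the sham mice. Sex was unevenly spread over these groups (4 of 5 irradiated and 8 of 15 sham mice were male), and sham miR-99b averaged 1140.2 RPM in females and 579 RPM in males. With sex as a covariate the changes of miR-99b and miR-125b were -0.32 and -0.09, and in males alone -0.47 and -0.12, with 0 members passing in either fit, beside 17.7% and 1.21% of all miRNAs. The difference between the strains was tested as an interaction, which shares every sham library with both contrasts. It was past an unadjusted p of 0.05 for miR-99a (-0.70, limma p = 0.0167, adjusted p = 0.307) and miR-99b (-1.29, limma p = 0.0206, adjusted p = 0.317), and 0 members passed. Of all tested miRNAs 0.286% passed the interaction in lung and 0% in heart, brain, WBC and RBC. For these 4 tissues 51, 21, 5 and 12 miRNAs had an unadjusted limma p under 0.05, edgeR called 0 in each, and DESeq2 called 4, 0, 0 and 1.

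In C3H heart, which lies within the irradiated chest, all 5 estimates lay above 0 (that of miR-99a, 0.16, was -0.0024 with library size alone). miR-100 was at 88.5, 174 and 324 RPM in sham and 94.3, 259 and 329 RPM in irradiated mice (0.66, SE 0.37, limma adjusted p = 0.208). miR-99b was at 115, 184 and 287 RPM against 107, 266 and 440.0 RPM (0.53, SE 0.30, limma adjusted p = 0.207). miR-125b was at 5028, 5979.7 and 8731 RPM against 3409, 6937 and 7580.5 RPM (0.33, limma adjusted p = 0.440). The groups overlapped for each. The lowest miR-125b value was that of irradiated replicate 1, and without it miR-99b passed (0.76, limma adjusted p = 0.0440). Without irradiated replicate 3, the library low in cardiac muscle markers, the changes of miR-100 and miR-99b were 0.56 and 0.39 (limma adjusted p = 0.381 and 0.425). Without sham replicate 3, the library high in leukocyte markers, they were 0.46 and 0.40 (limma adjusted p = 0.408 and 0.382), and that of miR-125a moved from 0.06 to -0.07. Without these libraries in turn the change of miR-125b was 0.25 and 0.24 (limma adjusted p = 0.620 and 0.639) and that of miR-99a 0.16 and 0.08. The estimates were larger in letter A alone (0.88 for miR-99b, 1.04 for miR-100, limma adjusted p = 0.112 and 0.0924) than in letter B alone (0.13 and 0.19, limma adjusted p = 0.911 and 0.886), where those of miR-99a, miR-125a and miR-125b lay under 0, and the difference between the letters was not tested. In C57 heart the 5 estimates ran from -0.39 for miR-99a to -0.14 for miR-100, and 0 passed. With sex as a covariate they ran from -0.26 for miR-99a to 0.09 for miR-100.

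In brain, WBC and RBC no member passed either. In brain the C3H estimates lay between -0.07 and 0.22. In C57 brain miR-99b was at 2631, 1426, 1605, 2009 and 2747 RPM in irradiated mice and at 642, 1021 and 3029.7 RPM in sham mice, inside the sham range (0.68, limma p = 0.0288, adjusted p = 0.320). In C3H WBC miR-99b had the estimate farthest from 0 of all, -1.37, with a limma adjusted p of 0.714. RBC held the other change past an unadjusted p of 0.05. There miR-125b was at 18.4, 17.3, 18.2, 16.2 and 24.1 RPM in irradiated C57 mice and at 12.04, 22.2 and 57.6 RPM in sham C57 mice (-0.64, limma p = 0.0474, adjusted p = 0.801).

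Ratios between members of 1 library do not depend on its scaling and were compared as 3 pairs (miR-99b to miR-125a, miR-125b to miR-125a, miR-99a to miR-100) in 5 tissues and 2 strains, 30 comparisons in all, by two-sided exact permutation tests on log2 ratios of counts plus 1. In C3H lung the ratio of miR-99b to its cluster mate miR-125a rose with irradiation. It was at 2.11, 2.63 and 2.96 (lowest, median, highest) in sham mice and at 3.23, 3.62 and 6.06 in irradiated mice, and the groups did not overlap. The mean log2 ratio was 1.37 ± 0.16 (SD, n = 8) in sham and 2.07 ± 0.41 (SD, n = 7) in irradiated mice, a difference of 0.70 (exact permutation p = 0.000155, the smallest this design can give; adjusted p = 0.00466). Within letter A the difference was 0.88 and within letter B 0.57, each without overlap and each at the smallest exact p that 3 or 4 mice against 4 allow (0.0286). The values of letter A were 5.32, 6.06 and 3.62 in irradiated mice, and those of letter B 3.32, 3.29, 3.23 and 5.66. Leaving out each of the 15 mice in turn gave differences of 0.61 to 0.76, with adjusted exact permutation p between 0.00999 and 0.0175. In this tissue 33.4% of all tested miRNAs passed with limma. Ratios of other miRNA pairs were not tested, so how often a pair separates these groups is not known.

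No other ratio passed the test. In C57 lung the same ratio was at 2.01, 3.29 and 7.08 in sham and 1.61, 3.44 and 5.07 in irradiated mice (log2 difference -0.01, exact permutation p = 0.974). The difference between the strains was not tested for ratios. In C3H heart the ratio was at 0.960, 1.13 and 1.38 in sham and 1.15, 1.36 and 2.87 in irradiated mice (0.40, exact permutation p = 0.0087, adjusted p = 0.131), and the highest value came from irradiated replicate 3, the library low in cardiac muscle markers. Without that library the difference was 0.25 (exact permutation p = 0.0233, adjusted p = 0.175), and without sham replicate 3 it was 0.40 (exact permutation p = 0.0192, adjusted p = 0.171). Without irradiated replicate 6 it passed (0.47, adjusted exact permutation p = 0.04995). In the same hearts the ratio of miR-99a to miR-100 had a difference of -0.58 (exact permutation p = 0.0246, adjusted p = 0.147), which passed without irradiated replicate 1 (-0.72, adjusted exact permutation p = 0.0450) and was -0.41 without irradiated replicate 3 and -0.51 without sham replicate 3 (adjusted exact permutation p = 0.307 and 0.287). In C57 brain the ratio of miR-99b to miR-125a was at 0.720, 1.20 and 2.85 in sham and 1.55, 2.11 and 2.74 in irradiated mice (0.80, exact permutation p = 0.0154, adjusted p = 0.147). With male C57 mice alone this difference was 0.95 and passed (adjusted exact permutation p = 0.0404). The C57 brain ratio of miR-125b to miR-125a, with a difference of 0.31 (exact permutation p = 0.0228, adjusted p = 0.147), also passed in males alone (0.25, adjusted exact permutation p = 0.0303). The ratio of miR-125b to miR-125a in C3H lung, at 24.6 to 29.8 in sham and 22.9 to 36.2 in irradiated mice, did not separate the groups (log2 difference -0.03, exact permutation p = 0.794).

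**Figure D3:**
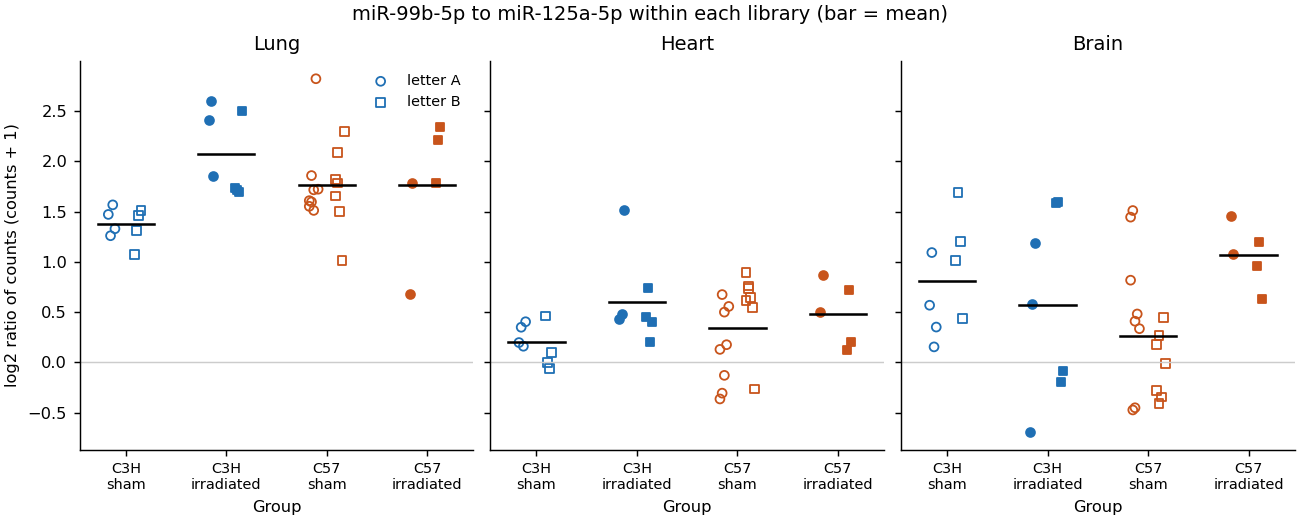
Log2 ratio of miR-99b-5p to miR-125a-5p counts in lung, heart and brain libraries, by strain and treatment. Circles are letter A, squares letter B, and bars group means. In C3H lung the irradiated mice (mean 2.07) all lie above the sham mice (mean 1.37).

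The other arms of the member hairpins give a separate readout of the same loci. Of these 6 miRNAs 5 were tested in lung, and in C3H mice 2 rose and 0 fell, beside 33.4% of all tested miRNAs passing in either direction. The list had a median change of 0.24 against -0.08 for all tested miRNAs. miR-99b-3p was at 11.4, 21.0 and 27.1 RPM in sham and 33.4, 38.0 and 46.6 RPM in irradiated mice, so that 7 of 7 irradiated mice lay above all sham mice (0.65, SE 0.24, limma adjusted p = 0.0321). miR-125b-1-3p was at 16.8, 23.03 and 51.3 RPM against 34.2, 51.8 and 83.9 RPM, with overlap (0.68, SE 0.26, limma adjusted p = 0.0426). Its counterpart from the other locus, miR-125b-2-3p, had a change of -0.21 (limma adjusted p = 0.239), miR-99a-3p of -0.07 and miR-125a-3p of 0.24. Neither rise held in every setting. miR-99b-3p did not pass in letter B alone (0.30, limma adjusted p = 0.579), nor miR-125b-1-3p in letter A alone (0.43, limma adjusted p = 0.486), and neither passed when every miRNA with a count was tested (limma adjusted p = 0.0708 and 0.0922). Of 35 fits that each left out 1 lung library, 7 lost miR-99b-3p (limma adjusted p 0.0512 to 0.0793) and 11 lost miR-125b-1-3p (0.0512 to 0.127). In C57 lung 0 of 5 passed, with changes of 0.11 for miR-99b-3p, 0.46 for miR-125b-1-3p and 0.27 for miR-125b-2-3p, and the interactions did not pass (limma adjusted p = 0.490 for miR-99b-3p and 0.777 for miR-125b-1-3p). In C3H heart 0 of the 4 tested passed with limma.

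**Figure D4:**
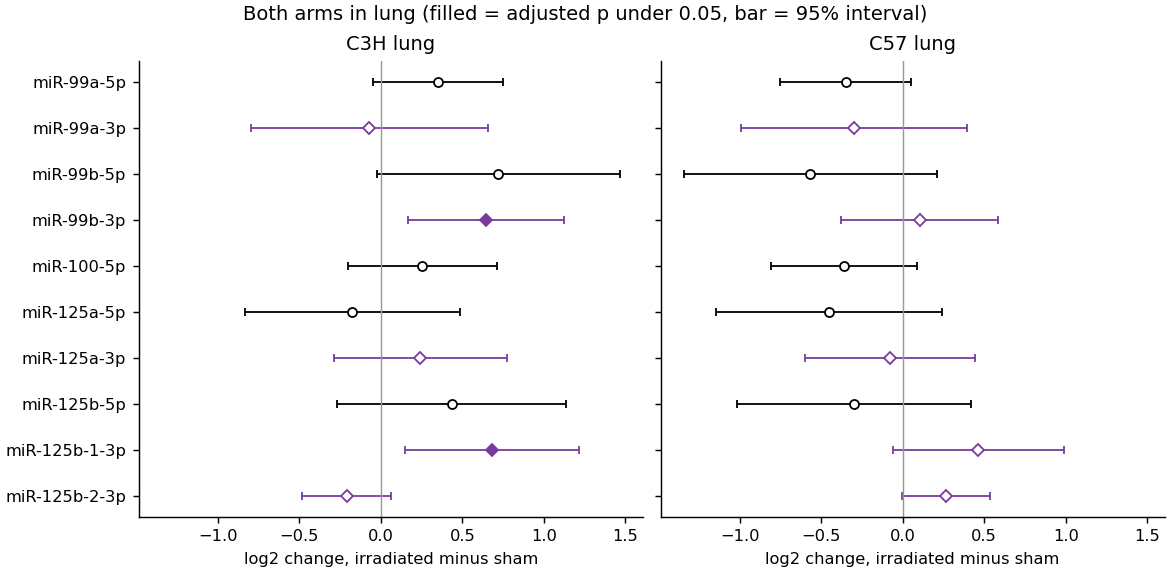
Log2 change, irradiated minus sham, of each member (5p) and of the other arm of its hairpin (3p, purple diamonds) in C3H and C57 lung. Filled marks passed an adjusted p of 0.05 and bars are 95% confidence intervals. Only miR-99b-3p (0.65) and miR-125b-1-3p (0.68) in C3H lung are filled.

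Of the 6 let-7 miRNAs encoded beside the members, 5 were tested in lung and heart. let-7c-1-3p, the minor arm of the let-7 hairpin next to miR-99a, rose in C3H lung from 0.777, 2.48 and 4.34 RPM to 3.74, 5.28 and 8.05 RPM, with 6 of 7 irradiated mice above all sham mice (0.91, limma adjusted p = 0.00626). These are 3 to 17 counts in sham and 12 to 30 in irradiated libraries, and the call was lost in either letter alone (1.10 and 0.70, limma adjusted p = 0.0618 and 0.168). Its major arm let-7c-5p, which can also come from another locus, had a change of -0.01 (medians 45441 and 45020 RPM, limma adjusted p = 0.963), and let-7e-5p, the cluster mate of miR-99b and miR-125a, of 0.25 (limma adjusted p = 0.226). In C3H heart let-7c-1-3p fell, from 12.7, 23.4 and 41.4 RPM to 7.44, 15.3 and 25.8 RPM (-0.53, limma adjusted p = 0.0261), a call that was lost without irradiated replicate 3 (-0.44, limma adjusted p = 0.0819) and in either letter alone (-0.38 and -0.67, limma adjusted p = 0.307 and 0.0962), and that passed without sham replicate 3 (-0.62, limma adjusted p = 0.00878). miR-351-5p, which shares the miR-125 seed, rose in C3H heart from 2.98, 5.86 and 7.33 RPM to 5.04, 9.43 and 15.1 RPM (1.01, limma adjusted p = 0.0415), and this call was also lost without that library (0.81, limma adjusted p = 0.122) and without sham replicate 3 (0.87, limma adjusted p = 0.0979). It passed in letter A alone (1.70, limma adjusted p = 0.0323) and not in letter B alone (0.23, limma adjusted p = 0.820). In C3H lung, where miR-351-5p is more abundant, it was at 21.2, 70.6 and 118.6 RPM in sham and 95.7, 135.5 and 218 RPM in irradiated mice (0.75, limma adjusted p = 0.292).

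The second comparison set sham females of the 2 strains against each other, at different months. In heart all 5 members were higher in C57 than in C3H females, beside 38.5% of the 312 tested miRNAs passing in either direction, and the median change was 1.02 for the members against 0.02 for all tested miRNAs. miR-100 was at 88.5, 174 and 324 RPM in C3H and 194, 289 and 524 RPM in C57 females (1.09, SE 0.34, limma adjusted p = 0.0163). miR-125a was at 99.3, 146 and 299 RPM against 214, 239.6 and 472 RPM (1.08, SE 0.30, limma adjusted p = 0.00888), and miR-99b at 115, 184 and 287 RPM against 196, 342 and 785 RPM (1.02, SE 0.28, limma adjusted p = 0.00749). miR-125b was at 5028, 5979.7 and 8731 RPM against 7688, 9487 and 20815 RPM (0.84, SE 0.28, limma adjusted p = 0.0227). miR-99a was at 1229, 1739.5 and 3158 RPM against 1868, 2422 and 3522 RPM (0.65, SE 0.25, limma adjusted p = 0.0378). The strains overlapped for every member. With library size alone, where the median of all miRNAs was at -0.33, miR-99a no longer passed (0.45, limma adjusted p = 0.126), nor did it when every miRNA with a count was tested (0.66, limma adjusted p = 0.0716), and it was also lost in 7 of 35 fits that left out 1 library.

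The C3H hearts differed with the letter. miR-99b was at 115 to 164 RPM in the 4 C3H sham females of letter A and 205 to 287 RPM in the 4 of letter B, without overlap, and miR-100 averaged 111 and 227 RPM. Fits within 1 letter were added after the values had been seen. In letter A alone all 5 members were higher in C57 females (1.00 for miR-99a to 1.76 for miR-100, limma adjusted p at most 0.0192), beside 42.6% of all miRNAs. In letter B alone only miR-125b was (0.59, limma adjusted p = 0.0287), beside 12.2% of all miRNAs, and the others had estimates of 0.35 to 0.69 (limma adjusted p at least 0.162). The difference between the letters was not tested.

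Marker miRNAs differed between the same hearts. The erythrocyte sum was 608 to 2740.0 RPM (median 862) in C3H and 339.6 to 704 RPM (median 485) in C57 females, the leukocyte sum 1065 to 10253 against 986 to 1592 RPM, the mesenchymal sum 41644 to 81090.2 against 36273 to 44262 RPM with 3 of 5 markers lower in C57, and the cardiac muscle sum, which overlapped almost fully, 216176 to 291000.5 against 222477 to 298863 RPM. Their part in the member values was not tested. Without C3H sham replicate 3, the library with the leukocyte sum of 10253 RPM, 3 members passed with limma, miR-99b (0.89, adjusted p = 0.0237), miR-125a (0.95, adjusted p = 0.0260) and miR-100 (0.89, adjusted p = 0.0478), while miR-125b (0.75, adjusted p = 0.0563) and miR-99a (0.57, adjusted p = 0.0900) did not.

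In WBC miR-99a separated the strains without overlap, beside 24.7% of 291 miRNAs passing. It was at 24.9, 36.7, 6.71, 7.75 and 38.1 RPM in the 5 C3H females and at 88.4, 114.5, 132 and 124.5 RPM in the 4 C57 females (1.86, SE 0.30, 3.63-fold, limma adjusted p = 0.000119). Under the other scalings and tools the difference was 1.84 to 2.65 and passed each time. The other 3 tested members did not pass (0.11 for miR-99b, -0.26 for miR-125a, 0.01 for miR-125b). The leukocyte marker sum was 15266 to 22428 RPM in C3H and 16287 to 19887 RPM in C57 females, and the erythrocyte sum 30121 to 44647 against 44256 to 63217 RPM. The neuronal sum was 369 to 1572 RPM (median 461) in C3H females, 936 to 1461 RPM (median 1072) in C57 females and 1679 to 5802 RPM (median 2820.0) in C57 males, in the same order as miR-99a. The medians of the endothelial (1325, 1836 and 2135 RPM), mesenchymal (56.8, 115 and 127.5 RPM) and cardiac muscle sums had this order too. Those of the erythrocyte, leukocyte and epithelial sums did not. The part of these markers was not tested. In letter A alone miR-99a did not pass (1.65, limma adjusted p = 0.0579), beside 2.71% of all miRNAs, and in letter B alone it did (2.13, limma adjusted p = 0.0153), beside 11.5%.

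In RBC miR-99a, miR-125a and miR-125b were higher in C57 females, beside 19.7% of 229 miRNAs passing. miR-99a was at 0.551, 3.58 and 9.95 RPM in C3H and 4.63, 11.9 and 34.0 RPM in C57 females (2.28, SE 0.46, limma adjusted p = 0.00042). miR-125b was at 6.89, 14.7 and 32.4 RPM against 12.04, 42.3 and 57.6 RPM (1.03, limma adjusted p = 0.0190), and miR-125a was higher by 1.60 on the log2 scale (limma adjusted p = 0.0206). In letter A alone the 3 and miR-99b passed (1.56 for miR-125b to 3.51 for miR-99b, limma adjusted p at most 0.0132), beside 42.2% of all miRNAs, and in letter B alone 0 members did, beside 16%, with miR-99a at 1.29 and miR-125a at -0.10 (limma adjusted p = 0.286 and 0.950). When 10 counts were required in every RBC library no member was left to test, and when every miRNA with a count was tested miR-125a did not pass (limma adjusted p = 0.0580). DESeq2 also called miR-99b (2.24, adjusted p = 0.00747). Without C57 sham replicate 11 only miR-99a passed. miR-125a was also lost without C3H sham replicate 2 and miR-125b without C57 sham replicate 9. The C3H values of miR-99a and miR-125a rest on few counts, 2 to 35 and 0 to 18 a library. Within the C57 females the letters stood apart in RBC markers. Erythrocyte sums were 31039 to 38174 RPM in letter A and 52074 to 106323 RPM in letter B, leukocyte sums 17656 to 21462 and 27520 to 45244 RPM, and in C3H females they were 46232 to 74660.4 and 19776 to 36641 RPM. Epithelial sums were 179.5 to 231 RPM in letter A, 470.5 to 996 RPM in letter B and 378 to 548 RPM in C3H females. miR-99a was at 11.1 to 34.0 RPM in the 4 C57 females of letter A and 4.63 to 29.1 RPM in the 3 of letter B, and the part of these markers in the strain difference was not tested. In lung only miR-100 passed, beside 15.1% of 350 miRNAs, at 152 to 268 RPM in C3H and 209, 371 and 556 RPM in C57 females (0.76, SE 0.22, limma adjusted p = 0.0174), and with TMM factors (0.71, limma adjusted p = 0.0605) and in letter A alone (0.53, limma adjusted p = 0.373) it did not. In these lungs the epithelial marker sum was 12588 to 22592 RPM in C3H and 19709 to 32852 RPM in C57 females, the mesenchymal sum 47413 to 57360 against 48630 to 80589 RPM and the leukocyte sum 3397 to 4826 against 2393 to 3833 RPM, and their part in the miR-100 value was not tested. In brain 0 members passed with limma, beside 15.9% of 433 miRNAs. There 3 had an unadjusted p under 0.05, namely miR-125a (0.79, limma adjusted p = 0.0630), miR-100 (0.81, limma adjusted p = 0.0760) and miR-125b (0.51, limma adjusted p = 0.128). The epithelial marker sum of these brains was 228 to 29182 RPM (median 1633) in C3H and 352 to 41037 RPM (median 10473.5) in C57 females, and its part was not tested. For the same contrast edgeR and DESeq2 each called 3, beside 14.3% and 16.6% of all miRNAs. In letter A alone 0 members passed with limma, beside 6.65% of all miRNAs, and in letter B alone 4 did (1.36 for miR-125b to 2.12 for miR-100, limma adjusted p at most 8.84e-06), beside 68.2%.

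The third comparison set C57 sham females against C57 sham males, and shares its females with the second. In heart 3 members were higher in females, beside 39.4% of miRNAs passing. miR-125a was at 86.8, 145 and 354 RPM in males (1.03, SE 0.30, limma adjusted p = 0.00946), miR-100 at 80.6, 184 and 325 RPM (0.93, SE 0.34, limma adjusted p = 0.0324) and miR-125b at 3995, 6675 and 12156 RPM (0.76, SE 0.28, limma adjusted p = 0.0348). All overlapped with the female ranges given above. Leaving out 1 library in turn lost the call of miR-125b in 8 of 35 fits and that of miR-100 in 4. miR-99b (0.66, limma adjusted p = 0.0564) and miR-99a (0.52, limma adjusted p = 0.0855) did not pass with quantile normalisation but did with TMM factors, edgeR and DESeq2, and with library size alone miR-125b did not pass (0.56, limma adjusted p = 0.0555). When every miRNA with a count was tested, only miR-125a passed (miR-125b 0.76 and miR-100 0.93, limma adjusted p = 0.0652 and 0.0618). Over these scalings, tools and filters 1 to 5 members were higher, and with a minimum on the fold change the count was 0. In letter A alone 0 members passed with limma, beside 0.608% of all miRNAs, with estimates of -0.09 for miR-99a to 0.53 for miR-125a, and in letter B alone all 5 did (1.12 for miR-99b to 1.59 for miR-125b, limma adjusted p at most 0.00706), beside 55.6%. With TMM factors, edgeR and DESeq2 45.5%, 45.8% and 46.5% of all miRNAs passed. In male hearts miR-125b also differed with the letter, with medians of 10812 RPM in letter A and 4659 RPM in letter B. Mesenchymal marker sums were 43914 to 60127 RPM in male hearts and 36273 to 44262 RPM in female hearts, and leukocyte sums, which did not overlap, were 1672 to 2603 RPM and 986 to 1592 RPM. Their part in the member values was not tested.

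In WBC miR-99a was lower in females than in males, at 183, 298 and 423 RPM in 7 males and 88.4 to 132 RPM in 4 females, without overlap (-0.84, SE 0.27, limma adjusted p = 0.0433), beside 12% of miRNAs passing. The call was lost with TMM factors (-0.77, limma adjusted p = 0.0770) and edgeR (adjusted p = 0.0968), in either letter alone (-0.94 and -0.73, limma adjusted p = 0.132 and 0.549) and in 14 of 27 fits that left out 1 library. DESeq2 called 3 members lower there, miR-99a (-0.87, adjusted p = 0.0249), miR-125a (-1.86, adjusted p = 0.0392) and miR-125b (-1.78, adjusted p = 0.0218), beside 18.6% of all miRNAs. In letter A alone miR-125b passed (-2.58, limma adjusted p = 0.0102), beside 15.6% of all miRNAs, and in letter B alone 1.31% of all miRNAs passed. The leukocyte marker sum was 23819 to 33448 RPM in male and 16287 to 19887 RPM in female WBC, and the neuronal sum 1679 to 5802 against 936 to 1461 RPM, and their part in this difference was not tested. Shares of all tested miRNAs that passed were 7.71% in lung, 22.9% in brain and 18.8% in RBC, where 0 members passed with limma. Unadjusted p was under 0.05 for miR-99b and miR-125b in lung (0.80 and 0.77, limma adjusted p = 0.130 and 0.119) and for miR-99b in brain (0.62, limma adjusted p = 0.107). DESeq2 called 1 member in lung (17.7% of all miRNAs) and 2 in brain (24.2%), and edgeR 1 in brain (20.1%). In letter B alone 3 members were higher in female lung (1.26 for miR-125a to 1.83 for miR-99b, limma adjusted p at most 0.00593), beside 34.3% of all miRNAs, and all 5 in female brain (0.50 for miR-99a to 1.68 for miR-125a, limma adjusted p at most 0.0179), beside 60.3%. Neither tissue had a member passing with limma in letter A alone (0 of 5), beside 0.562% and 0% of all miRNAs. Some marker sums also separated the sexes in letter B. In lung, leukocyte sums were 2484 to 3138 RPM in females and 3572 to 4495 RPM in males, and epithelial sums 19708.5 to 21272.5 against 26623 to 36605 RPM. In brain, epithelial sums were 8069 to 20622 against 172 to 1814 RPM, and endothelial sums 95578 to 123853 against 143797 to 156330 RPM. Their part in the member values was not tested. Without C57 sham replicate 11, 3 members passed in lung, miR-99b (1.09, limma adjusted p = 0.0245), miR-125b (0.99, limma adjusted p = 0.0329) and miR-125a (0.89, limma adjusted p = 0.0380). The share of all miRNAs that passed in that fit is not given here. The lung of that mouse had an erythrocyte marker sum of 2121.1 RPM against a lung median of 407.7, and another lung reached 2823.0 RPM. The part of this sum was not tested.

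**Figure D5:**
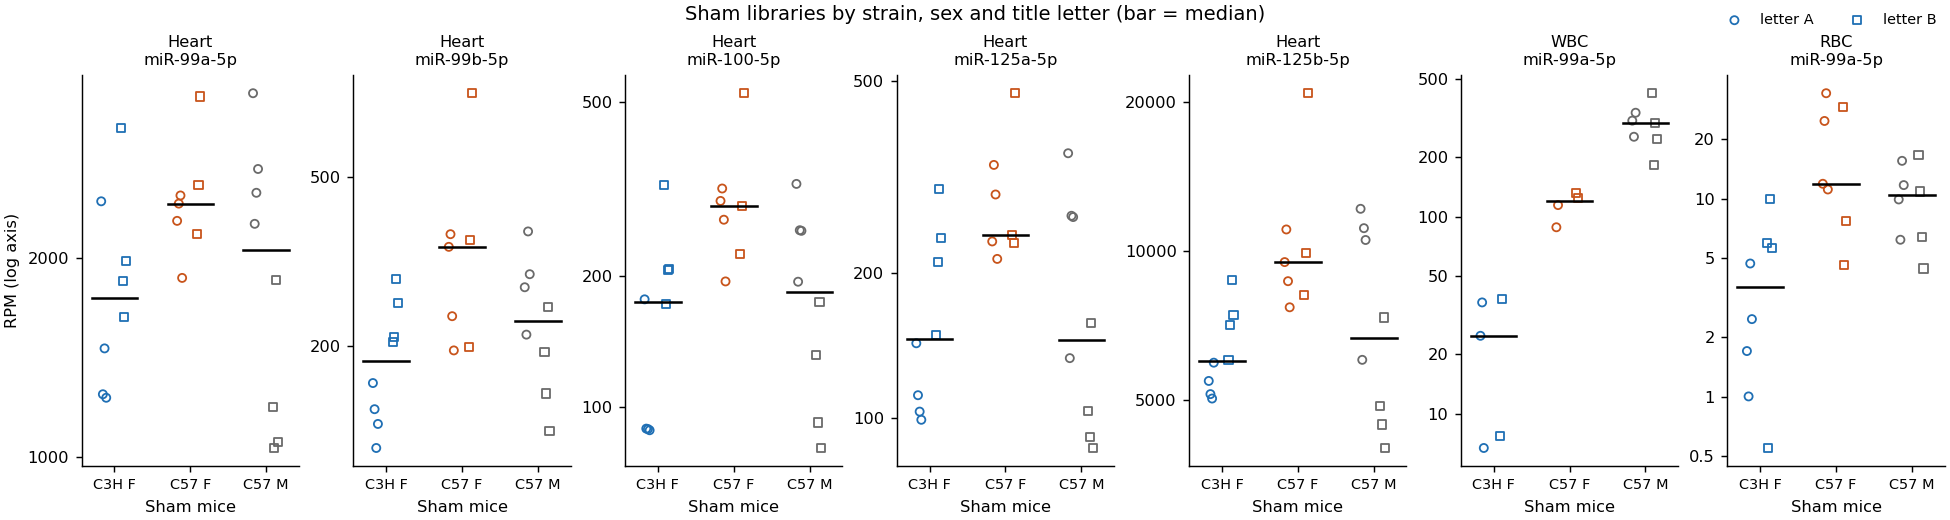
RPM (log axis) in sham C3H females, C57 females and C57 males, for the 5 members in heart and for miR-99a-5p in WBC and RBC. Points are mice (circles letter A, squares letter B) and bars group medians. In heart the C57 females have the highest median for each member, and in WBC the C3H females are lowest and the C57 males highest in miR-99a, without overlap.

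The spread among sham mice of 1 strain was wide for some members and narrow for some of their ratios. In C57 lung the SD of log2 level was 1.02 for miR-99b, 0.99 for miR-125b and 0.95 for miR-125a, against a median of 0.487 over 350 tested miRNAs, of which 11, 15 and 18 had a larger SD. The ratio of miR-125b to miR-125a, which come from different chromosomes, had an SD of 0.20 in the same mice. Of the 350 miRNAs 338 had a larger SD of level, but a level and a ratio are unlike measures, and ratios of pairs outside the members were not measured. In C3H lung the levels had SDs of 0.75 (miR-99b), 0.69 (miR-125a) and 0.64 (miR-125b), and the ratio of miR-125b to miR-125a an SD of 0.10. In C3H brain, miR-99a and miR-100 had SDs of 0.69 and 0.70, and their ratio, 2.17 to 2.41 in every sham mouse, an SD of 0.05. The ratio of the cluster mates miR-99b and miR-125a varied more in some groups, with an SD of 0.52 in C3H brain, where the levels had SDs of 0.34 and 0.30. Its SD was 0.63 in C57 brain and 0.41 in C57 lung, but 0.16 in C3H lung and 0.19 in C3H heart. The C3H brain levels of miR-99a and miR-100 followed the letter of the mice. In C3H sham mice miR-99a was at 2189.9 to 2933 RPM in letter A and 890.3 to 1090.4 RPM in letter B, and miR-100 at 931 to 1324 and 369.9 to 498 RPM. In C57 sham females the order was the opposite, with miR-99a at 945 to 2309 RPM in letter A and 2595 to 4589.5 RPM in letter B and miR-100 at 585 to 1232 and 1948 to 2653 RPM, and in C57 sham males the letters overlapped.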

How the data were processed

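Small RNA from whole-tissue homogenates and from blood fractions obtained by centrifugation was sequenced by the authors, who deposited raw counts per mature miRNA (QIAseq libraries, NextSeq, BaseSpace Small RNA, mm10). Use of molecular identifiers and the handling of reads that match several miRNAs are not given in the sources used here. Groups came from the sample labels and 0 columns were left unused. The members and lists were chosen with earlier results of these data known. Library totals were 2024219 to 4582208 counts in lung, 1944992 to 4784251 in heart, 1794995 to 3966832 in brain, 2354921 to 7865102 in WBC and 2510857 to 4702286 in RBC. Floors cover counting error only.

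Counts were filtered with edgeR 4.0.16 (filterByExpr, minimum count 10, minimum total 15) and fitted per tissue with limma 3.58.1 (voom, quantile normalisation) in R 4.3.3. WTLI and interaction contrasts used 4 groups, and strain and sex contrasts used 6 groups that also split C57 mice by sex. Adjusted p under 0.05 passed. The fit was also run on simulated counts with known changes, and the outcome is not given here. Tissue pairs were compared by sign-flip permutation within animals (100000 resamples, smallest p 1e-05, pseudocount 1 RPM), paired because the animal number in the title marks the same mouse, and ratios by exact permutation (1 count added, adjusted over 30), with scipy 1.17.1. Alternatives were TMM factors, library size alone, edgeR, DESeq2 1.42.0, filters of at least 1 count in any or 10 counts in every library, a fold minimum of 2.25, letter or sex as a covariate, 1 letter (for strains and sexes added after the data had been seen), strain or sex alone, other pseudocounts, and leaving out each library. No pair of libraries of 1 group agreed within sampling noise (smallest chi-square per degree of freedom 17.8 over 746 pairs).

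Named miRNAs were the members, the other arms of their hairpins, the let-7 miRNAs of their clusters, other miRNAs with their seeds, and for each member the 3 miRNAs outside these lists with the highest Pearson r over the 10 sham groups, among those averaging at least 10 RPM in a tissue.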

Additional observations from a re-analysis of the deposited data

Results flagged for a closer look

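In 10 of 110 groups of 4 to 10 samples, 1 sample lay far from the others by Dixon's criterion, which chance meets in about 1 group in 20. The level of miR-99b-5p in 1 irradiated C57 WBC library was 233.4 RPM, and the next of the 5 was 61.7 RPM. For miR-100-5p 1 irradiated C3H brain was at 1853.1 RPM, and the next of 7 at 905.0 RPM. miR-125a-5p reached 1769.8 RPM in 1 irradiated C57 brain, and 960.3 RPM in the next of 5. In C3H sham WBC 1 library held 72.4 RPM of miR-125a-5p, and the next of 5 held 20.1 RPM. miR-125b-5p was lowest in 1 irradiated C3H heart, at 3408.5 RPM, with the nearest of the other 6 at 6111.6 RPM. In irradiated C57 RBC the highest miR-125b-5p level was 24.1 RPM, and the nearest of the 5 was 18.4 RPM.

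Among log2 ratios, that of miR-125b-5p to miR-125a-5p was 5.18 in 1 irradiated C3H lung (next of 7, 4.80) and 5.27 in 1 irradiated C3H WBC library (next of 6, 2.60). The log2 ratio of miR-99b-5p to miR-125a-5p was 1.52 in irradiated C3H heart replicate 3, the library low in cardiac muscle markers, and 0.74 in the next of 7. The log2 ratio of miR-99a-5p to miR-100-5p was 0.19 in 1 irradiated C57 brain, and 0.60 in the nearest of the 5.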

How the results depend on the processing

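Of the counts of members or pairs that passed, 243 under other settings and 991 with 1 library left out stayed within 1.5 times, and 36 and 34 did not. Signs changed for 3 member differences that passed either in the main limma fit or in the other setting, all in letter B alone. These were miR-99a (0.50) and miR-100 (0.64) between sexes in brain and miR-125a (-0.10) between strains in RBC. Passing or not, signs moved under other settings in 41 of 515 cases for WTLI, 14 of 201 for strain, 20 of 201 for sex and 16 of 178 for the interaction. Signs of tissue pairs moved too, such as brain over lung with TMM for miR-99a (-0.85) and miR-99b (-0.31). For WTLI in C3H lung the count of 0 became 3 in letter A alone and 1 with 1 strain at a time. Between strains the count went from 1 to 0 in lung with TMM and with the fold minimum, from 5 to 0 in heart with the fold minimum, from 0 to 2 (TMM), 1 (library size alone), 3 (edgeR) and 3 (DESeq2) in brain, and from 3 to 0 in RBC when 10 counts were required in every library, where no member was left to test. Between sexes it went from 0 to 1 in lung (DESeq2), from 3 to 0 (fold minimum), 1 (at least 1 count) and 5 (TMM, edgeR, DESeq2) in heart, from 0 to 1 (edgeR) and 2 (DESeq2) in brain, and from 1 to 0 (fold minimum, TMM, edgeR) and 3 (DESeq2) in WBC. Fits within 1 letter were added after the values had been seen, and brackets give the share of all miRNAs passing. Between strains, letter A gave 0 in lung (4.78%) and WBC (2.71%). Letter B gave 1 in heart (12.2%), 4 in brain (68.2%) and 0 in RBC (16%). Between sexes, letter A gave 0 in heart (0.608%). Letter B gave 3 in lung (34.3%), 5 in heart (55.6%), 5 in brain (60.3%) and 0 in WBC (1.31%). Tissue pairs went from 15 to 4 in C3H alone, whose 5 WBC mice cannot reach 0.05 in pairs with WBC. Ratios went from 1 to 0 in each letter alone, where the smallest exact p for C3H lung is 0.0286, and to 3 with male C57 mice alone. Other causes were not tested. The replicate block (the animal) in the tissue comparison changed no count, with 15 of 20 pairs passing unpaired.

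Leaving out each library in turn gave ranges of 0 to 1 (C3H lung WTLI, C3H heart WTLI, sex in brain and in WBC), 0 to 3 (sex in lung, strain in brain), 3 to 5 (strain in heart), 1 to 4 (sex in heart, strain in RBC), 15 to 16 (tissue pairs) and 1 to 2 (ratios), and the other counts were constant. Strain in heart was 3 without C3H sham replicate 3 or 4 or C57 sham replicate 15, sex in heart was 1 without C57 sham replicate 5, 6, 8 or 15, and strain in brain was 3 without C57 sham replicate 11. No sham library of either blood fraction held more than 5 counts of miR-100. In RBC the other members had sham means of 4.09 RPM (miR-125a) to 25.5 RPM (miR-125b).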

Other observations

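Beside the members, partners from the same loci also differed between sham groups. In brain, C57 females had less of 2 of the 5 tested other arms than C57 males with limma, beside 22.9% of all tested miRNAs passing in that contrast. miR-125b-1-3p averaged 213 RPM in 7 females and 319 RPM in 8 males (-0.54, adjusted p = 0.00672), and miR-99a-3p 2.68 and 5.41 RPM (-0.85, adjusted p = 0.00727). Of the 5 tested let-7 partners 3 were higher in female brain, let-7c-5p (0.35, adjusted p = 0.0415), let-7e-5p (0.48, adjusted p = 0.0159) and let-7e-3p (0.79, adjusted p = 0.0050), with limma. Of 35 fits that each left out 1 library, 9 lost let-7c-5p and 1 lost let-7e-5p. The epithelial marker sum of the same brains was 352 to 41037 RPM (median 10473.5) in females and 172 to 2165 RPM (median 300.5) in males, and its part in these differences was not tested. In heart the major arm let-7c-5p was higher in C57 females than in both C3H females (0.65, limma adjusted p = 0.0189) and C57 males (0.67, limma adjusted p = 0.0137), as were all 5 members by estimate. The former call was lost without C57 sham replicate 15 (limma adjusted p = 0.0546). Other partners also passed with limma, all higher in C57 females. Against males in heart (39.4% of all miRNAs) these were let-7e-5p and miR-99b-3p, lost in 0 and 16 of 35 such fits. Against C3H females they were let-7e-3p in heart (38.5%), lost in 4, and let-7c-1-3p in lung (15.1%), lost in 7. In RBC let-7e-5p averaged 33.1 RPM in C57 females, 15.7 RPM in C3H females and 12.3 RPM in C57 males, and both differences passed (1.30 and 1.26, limma adjusted p = 0.0281 and 0.0339), but were lost in 4 and 6 of 35 fits that left out 1 library. In WBC miR-125b-2-3p was lower in C57 females than in males (-2.06, limma adjusted p = 0.0163), at means of 0.668 and 3.46 RPM, the former within the range of the floor, and the call was lost without C57 sham replicate 9 (limma adjusted p = 0.0675). Fits within 1 letter were added after the values had been seen. The 5 differences in brain passed in letter B, beside 60.3% of all miRNAs, and not in letter A, beside 0%. The heart differences of let-7c-5p were lost in letter A (0.47 and 0.17, limma adjusted p = 0.243 and 0.822). Those of let-7e-5p in RBC were lost in letter B (0.27 and 0.60, limma adjusted p = 0.773 and 0.432). That of miR-125b-2-3p in WBC was lost in both (limma adjusted p = 0.0596 and 0.586).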
